A study of Penicillium oxalicum with 18 samples.

Results

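The genes of a pair of β-glucosidases and of a lytic polysaccharide monooxygenase (LPMO) were followed through 18 transcriptome libraries of the filamentous fungus Penicillium oxalicum, a producer of secreted cellulases. They were chosen by name as enzymes of the first and last steps of cellulose degradation and make up 3 of the 9230 genes in the table: bgl1 (PDE_02736), which encodes an extracellular β-glucosidase, bgl2 (PDE_00579), which encodes an intracellular one, and PDE_05633, the LPMO gene. The study asked what the F-box protein Fbx23 does. It compared the wild-type strain 114-2 (WT), the deletion strain Δfbx23, in which the hph resistance marker replaced fbx23, and the complemented strain Refbx23. Refbx23 carries the same deletion and a copy of fbx23 returned with its own upstream region and terminator beside the ptrA marker. Whether each mutant strain is a single transformant is not given in the sources used here.

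Cellulose is taken apart by enzymes that act in sequence. LPMOs are copper enzymes that cut the crystalline surface oxidatively, cellobiohydrolases and endoglucanases then release short sugars such as cellobiose, and β-glucosidases split cellobiose to glucose outside or inside the cell. Cellobiose and its relatives also act as inducers of cellulase genes in such fungi, so β-glucosidases are known both as the last step of degradation and as enzymes that remove inducer. F-box proteins are the subunits of SCF ubiquitin ligases that recognise the target protein.

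Each strain was grown in 2 media with 3 libraries per strain and medium. All strains were first grown with 2% glucose for 24 h at 30°C, and the mycelia were then transferred. VMMG held 2% glucose. The basal medium is the modified Mendal’s medium in the labels and a Vogel's medium in the study. VMMC held cellulose, which is given as 1% microcrystalline cellulose with 1% bran in the labels and as 2% cellulose in the methods of the study. The time after transfer is likewise given as 18 h in the labels and as 24 h in the methods. Levels are FPKM, fragments divided by transcript length and by the size of the library. Levels of different genes are set side by side as for RNA-Seq, which the study describes. The labels describe a tag-based library, and for tags the division by length would not make genes comparable, so ranks, the order of the genes and the size of ratios between genes depend on this open point.

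Sums of FPKM lay between 781397 and 954142 per library, and 8385 to 8648 genes were above 0. The number of reads is unknown. Pearson's r between replicates, across genes on the log2 scale, ranged from 0.959 to 0.993. The deleted gene fbx23 was listed at 0 in the 6 Δfbx23 libraries and between 56.9 and 76.9 FPKM in the others, in accordance with the labels. In such bulk samples fewer hyphae of a kind and less transcript per hypha cannot be told apart.

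The LPMO gene was at or near 0 in glucose and strongly transcribed in cellulose. In VMMG it was listed at 0.12, 0.59 and 0 FPKM in the WT, at 0, 0.11 and 0 FPKM in Refbx23 and at 0 FPKM in all 3 Δfbx23 libraries. In VMMC it stood at 442, 340 and 399 FPKM in the WT, at 1095, 1168 and 1240 FPKM in Δfbx23 and at 138, 161 and 131 FPKM in Refbx23. No library of one strain in VMMC came near those of another, and the complemented strain lay on the far side of the WT from the deletion strain.

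The bgl2 transcript was the most abundant of the 3 in WT mycelium on cellulose. Its WT levels were 15.5, 17.1 and 11.7 FPKM in VMMG and 1665, 1775 and 1451 FPKM in VMMC. Those VMMC levels placed bgl2 between ranks 43 and 56 among all genes of its library and amounted to 0.186 to 0.223% of the FPKM sum. The bgl1 transcript was less steep. It stood at 12.3, 15.5 and 23.0 FPKM in WT VMMG and at 363, 397 and 391 FPKM in WT VMMC, where its rank was between 309 and 357. In glucose the WT thus held similar levels of the extracellular and the intracellular enzyme's transcripts, whereas in cellulose bgl2 exceeded bgl1 in each library by 3.71 to 4.59 times.

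**Figure D1:**
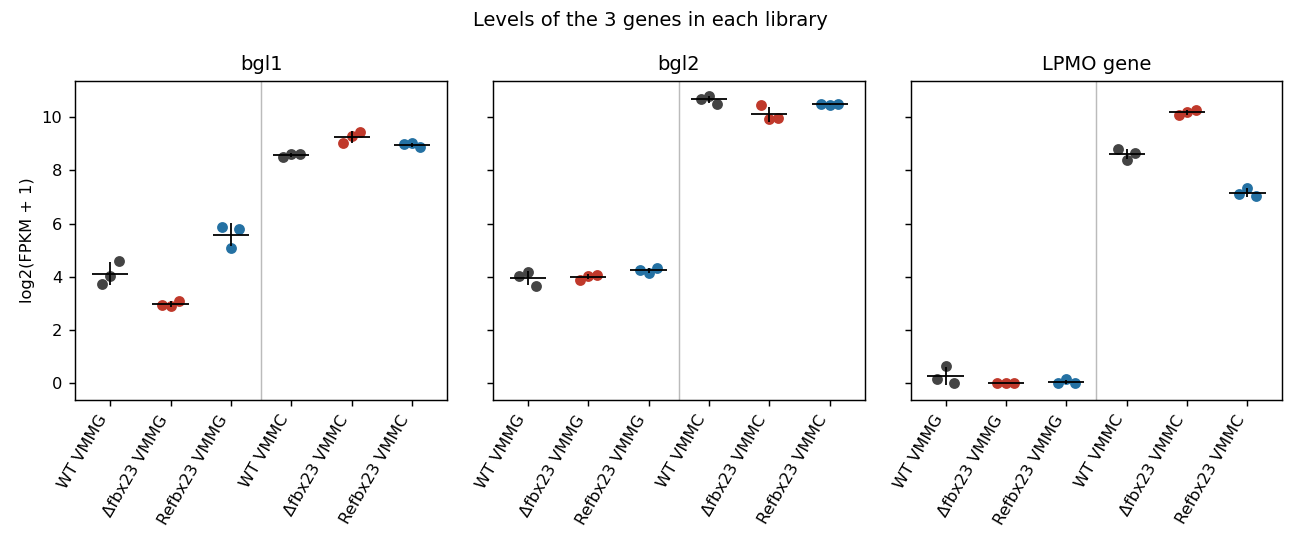
Level of each gene in each of the 18 libraries as log2(FPKM + 1), with 1 point per library, a horizontal line at the group mean and a vertical line of 1 SD to either side (n = 3). All VMMC libraries of each gene lie above all of its VMMG libraries, and the LPMO gene is at or near 0 in VMMG.

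The first comparison asked how much higher each gene was in VMMC than in VMMG within a strain, which is called induction here. The media differ in cellulose, in glucose and, by the labels, in bran, and these cannot be told apart. A gene was called at a fold change of at least 2 with a Benjamini-Hochberg adjusted p under 0.05 in limma, over all genes whose mean in the compared libraries reached 1 FPKM. All 3 genes were called higher in VMMC than in VMMG in the WT, where 25.7% of the 8053 genes tested were called higher and 15.5% lower. They were called higher in Δfbx23 and Refbx23 too, against 20.9% and 13.7% of the genes tested in these strains. Their media did not overlap in any strain, which was also true of 77.0% of the genes tested in the WT, 76.3% in Δfbx23 and 69.4% in Refbx23. The LPMO gene passed the filter on low values in these fits only through its VMMC level, so its call followed from the filter.

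For bgl2 the induction was large in the 3 strains and highest in the WT, with estimates that differed by less than 2-fold. The log2 fold change was 6.70 (SE 0.16, adjusted p = 3.54e-07) in the WT, 6.11 (SE 0.15) in Δfbx23 and 6.23 (SE 0.06) in Refbx23. As ratios of mean FPKM, these were 110.3, 74.2 and 79.0. In the order of all fold changes bgl2 ranked 33 in the WT, 82 in Δfbx23 and 24 in Refbx23.

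For bgl1 the induction depended on the strain. The log2 fold change was 4.47 (SE 0.21, adjusted p = 3.78e-06) in the WT, 6.28 (SE 0.12) in Δfbx23 and 3.37 (SE 0.20) in Refbx23, or 22.7, 89.1 and 10.3 times in mean FPKM. The steepest induction thus occurred in the strain with the lowest bgl1 level in glucose and the flattest in the strain with the highest. Strain means lay between 384 and 614 FPKM in VMMC and between 6.89 and 48.4 FPKM in VMMG, so this order mostly restates the VMMG levels. The LPMO gene had a log2 fold change of 8.34 (SE 0.19) in the WT and 7.12 (SE 0.11) in Refbx23, on the log2(FPKM + 1) scale, which understates the change of a gene near 0. For Δfbx23 no fold is given for the LPMO gene because it was listed at 0 in VMMG.

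The second comparison asked how the strains differed in cellulose. The LPMO gene differed in each pairing. Its mean was 393 ± 51.3 FPKM in the WT, 1168 ± 72.6 in Δfbx23 and 143 ± 15.9 in Refbx23 (SD, n = 3 each). Refbx23 was lower than the WT by 1.45 on the log2 scale (SE 0.11, adjusted p = 1.95e-05), a call that 7.09% of 8012 genes shared in that direction. As a ratio of mean FPKM, the WT exceeded the complemented strain by 2.74 times.

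Between the complemented and the deletion strain the LPMO gene showed 1 of the largest falls in the table. The log2 fold change of Refbx23 against Δfbx23 was -3.02 (SE 0.09, adjusted p = 3.57e-06), which ranked 14 from the lowest of the 7894 genes tested. The mean FPKM ratio was 8.14. In this comparison 1.67% of the genes tested were called lower and 1.44% higher, fewer than in either comparison with the WT. The difference between Δfbx23 and the WT was 1.57 (SE 0.12, adjusted p = 2.97e-05), and 6.05% of 8006 genes were called higher there. The comparisons share libraries and are not independent of each other.

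**Figure D2:**
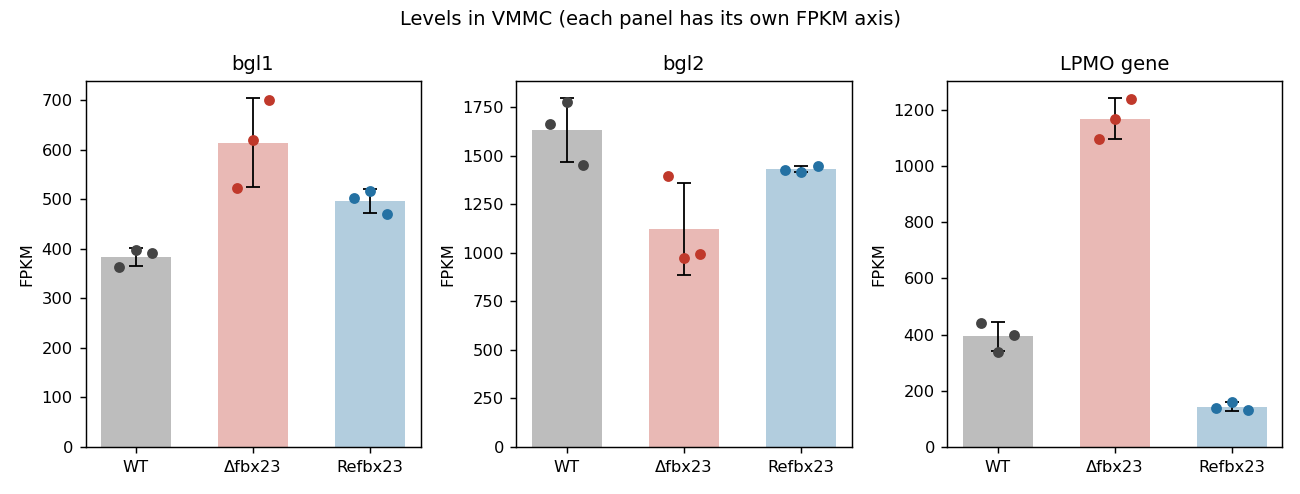
FPKM of each gene in VMMC with bars at the group mean, error bars of 1 SD (n = 3) and 1 point per library, on an axis starting at 0 in each panel. The LPMO gene is highest in Δfbx23 and lowest in Refbx23, bgl1 is lowest in the WT, and bgl2 is lowest in Δfbx23.

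Neither β-glucosidase gene reached a 2-fold difference between strains in cellulose. The bgl1 gene stood at 523, 620 and 701 FPKM in Δfbx23 and at 504, 517 and 470 FPKM in Refbx23, all above the WT values. The log2 fold change of Refbx23 against the WT was 0.37 (SE 0.07, adjusted p = 0.00207), and that of Δfbx23 against the WT was 0.67 (adjusted p = 0.00253). Both passed the threshold on p and not that on size, although for Refbx23 the adjusted p was 0.143 in a joint fit of all 18 libraries. Refbx23 against Δfbx23 was -0.30 (95% confidence interval -0.55 to -0.04, adjusted p = 0.119). The groups did not overlap, but 61.1%, 68.0% and 35.9% of the genes tested did not overlap in the comparisons of Δfbx23 with the WT, Refbx23 with the WT and Refbx23 with Δfbx23 either.

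The intracellular gene went the other way. In VMMC bgl2 stood at 1395, 973 and 995 FPKM in Δfbx23 and at 1427, 1418 and 1446 FPKM in Refbx23, so every Δfbx23 library lay below every WT library. The first Δfbx23 library sat close to Refbx23 and apart from the other two. The log2 fold change of Δfbx23 against the WT was -0.55 (SE 0.16, adjusted p = 0.0229), which is less than 2-fold. Refbx23 did not pass the threshold against the WT (-0.18, 95% confidence interval -0.39 to 0.02, adjusted p = 0.109) or against Δfbx23 (0.37, 95% confidence interval 0.05 to 0.70, adjusted p = 0.120). Without the first Δfbx23 library the log2 value of Δfbx23 against the WT was -0.72, and the values over all 6 omissions of a library ran from -0.72 to -0.46. The adjusted p of limma ran up to 0.0802 in these omissions, so the threshold on p was not always passed.

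In glucose bgl1 was the gene that differed between the strains. It stood at 6.68, 6.44 and 7.56 FPKM in Δfbx23 and at 57.2, 32.9 and 55.1 FPKM in Refbx23, so that the WT libraries lay between both mutant strains without overlap. The groups of 45.8% of genes did not overlap between Δfbx23 and the WT, 58.8% between Refbx23 and the WT and 67.1% between Refbx23 and Δfbx23. Against the WT, the log2 fold change was -1.14 in Δfbx23 (SE 0.22, adjusted p = 0.0137) and 1.47 in Refbx23 (SE 0.29, adjusted p = 0.00768). In these comparisons 7.00% of 7691 genes were called lower and 11.5% of 7795 genes were called higher. The call for Δfbx23 was lost without the third WT library (-0.91), which had the highest WT value, and without the second Δfbx23 library (adjusted p = 0.0504).

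Refbx23 exceeded Δfbx23 in bgl1 by 2.61 on the log2 scale in VMMG (SE 0.21, adjusted p = 0.00012), or 7.02 times in mean FPKM, and 13.4% of 7782 genes were called higher there. The variation among replicates of bgl1 was wide in VMMG, with a coefficient of variation of 32.5% in the WT and 27.9% in Refbx23 against a median of 11.8% and 8.55% over the genes that averaged 10 FPKM or more. In Δfbx23 it was 8.55%. The groups nevertheless remained apart.

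Genes for conidial pigment moved in VMMG in the same order of strains as bgl1. These 6 genes (abrA, abrB, albA, arpA, arpB and aygA) act in the making of the pigment of asexual spores and served as markers of conidiating hyphae in the mycelium. Their summed level in VMMG was 477 to 1074 FPKM in the WT, 44.7 to 66.0 FPKM in Δfbx23 and 3707 to 4481 FPKM in Refbx23. Of the 6 genes, 5 were called lower in Δfbx23 than in the WT, where 7.00% of all genes were, and 6 higher in Refbx23, where 11.5% of all genes were. None had a mean of 0 in any strain. The gene albA, at 0.953 FPKM in Δfbx23 VMMG, passed the filter in the comparison of Δfbx23 with the WT only through the WT. The part of conidiating hyphae in the bgl1 values was not tested. In VMMC the sums were 2841 to 3260 FPKM in the WT, 2716 to 3319 FPKM in Δfbx23 and 2511 to 2707 FPKM in Refbx23, and none of the 6 was called between strains.

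By contrast bgl2 was nearly flat over the strains in glucose. Its values were 13.9, 15.4 and 16.0 FPKM in Δfbx23 and 18.2, 16.9 and 19.2 FPKM in Refbx23. The log2 fold change against the WT was 0.04 in Δfbx23 (95% confidence interval -0.32 to 0.41, adjusted p = 0.860) and 0.29 in Refbx23 (95% confidence interval -0.07 to 0.65, adjusted p = 0.158). Refbx23 against Δfbx23 was 0.25 (95% confidence interval 0.02 to 0.48, adjusted p = 0.0634). None of these intervals reached a 2-fold difference. The LPMO gene was under the filter in VMMG and was not tested between strains there.

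**Figure D3:**
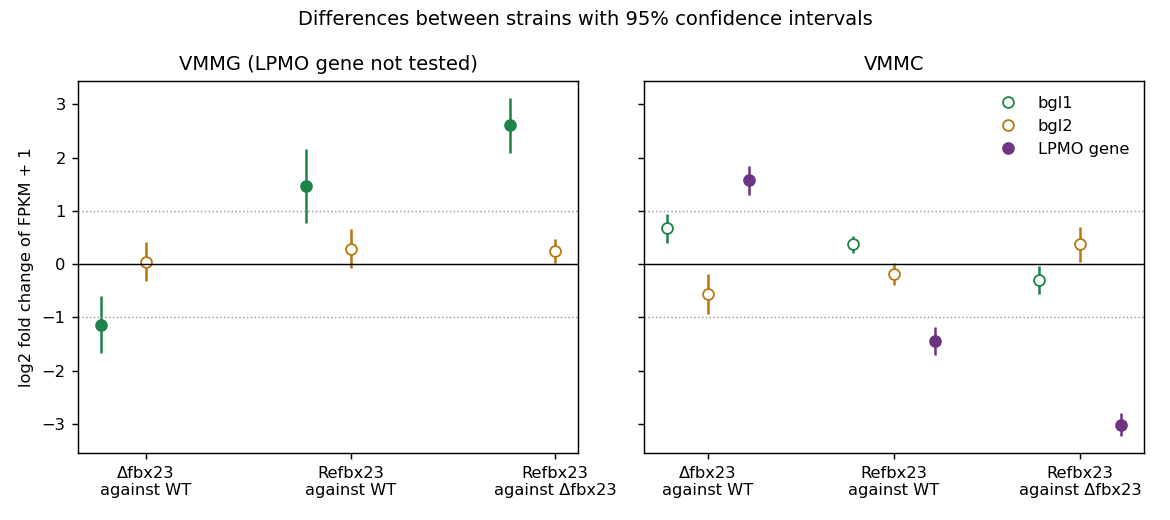
Log2 fold change of FPKM + 1 between strains with 95% confidence intervals from limma, in VMMG at left and VMMC at right, with filled points for called differences and dotted lines at 2-fold. In VMMG the 3 filled points are those of bgl1, and in VMMC they are those of the LPMO gene.

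The third comparison asked if a strain difference itself depended on the medium, as an interaction over 12 libraries (the VMMC difference minus the VMMG difference). For bgl1 the interaction was 1.81 for Δfbx23 against the WT (SE 0.26, adjusted p = 0.000298), where 20.4% of 8062 genes were called. The value was below the WT in glucose and above it in cellulose. For Refbx23 against the WT it was -1.09 (SE 0.32, adjusted p = 0.0125), where 28.9% of 8072 genes were called. In Refbx23 bgl1 was above the WT in both media, by more in glucose. This call was lost without WT VMMG replicate 1 (-0.90), Refbx23 VMMG replicate 1 (-0.95) or Refbx23 VMMG replicate 3 (-0.98). For bgl2 the interaction was -0.60 (SE 0.23, adjusted p = 0.0560) for Δfbx23 and -0.47 (SE 0.18, adjusted p = 0.0379) for Refbx23, neither of which was called. The LPMO values of 1.85 for Δfbx23 and -1.22 for Refbx23 restate the VMMC difference, because the gene was near 0 in VMMG and passed the filter through VMMC. They changed with the pseudocount, to 2.88 and -0.50 at 0.1, and are given as a description. Between Refbx23 and Δfbx23 the interaction was -2.90 for bgl1, 0.12 for bgl2 and -3.07 for the LPMO gene, and 23.1% of 7979 genes were called.

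The order of the 3 genes by level changed with strain and medium. In WT VMMC bgl2 was highest and the ranges of the LPMO gene and bgl1 overlapped. In Δfbx23 VMMC the LPMO gene overlapped with bgl2 and lay above it in 2 of 3 libraries. In Refbx23 VMMC bgl2 was followed by bgl1 and then by the LPMO gene, with no overlap. In VMMG bgl2 was 2.08 to 2.39 times bgl1 in the Δfbx23 libraries, while in Refbx23 bgl1 was 1.95 to 3.14 times bgl2.

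Ratios within a library do not depend on how the libraries were scaled. The LPMO gene over bgl1 in VMMC was 0.855 to 1.22 in the WT, 1.77 to 2.10 in Δfbx23 and 0.274 to 0.312 in Refbx23. The LPMO gene over bgl2 was 0.191 to 0.275 in the WT, 0.785 to 1.246 in Δfbx23 and 0.0906 to 0.114 in Refbx23. The ratio of the oxidative enzyme's transcript to either β-glucosidase transcript was thus highest in Δfbx23 and lowest in Refbx23. The ratio of bgl2 to bgl1 was 3.71 to 4.59 in the WT, 1.42 to 2.67 in Δfbx23 and 2.74 to 3.07 in Refbx23. None of these VMMC ranges overlapped, and each exact permutation test gave p = 0.1, the smallest that 3 against 3 libraries allow (two-sided). How often ratios of other gene pairs separate was not tested. Single genes did not overlap in 61.1% (Δfbx23 with the WT), 68.0% (Refbx23 with the WT) and 35.9% (Refbx23 with Δfbx23) of cases. The LPMO gene itself differed in each pairing, so its ratios partly restate that.

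**Figure D4:**
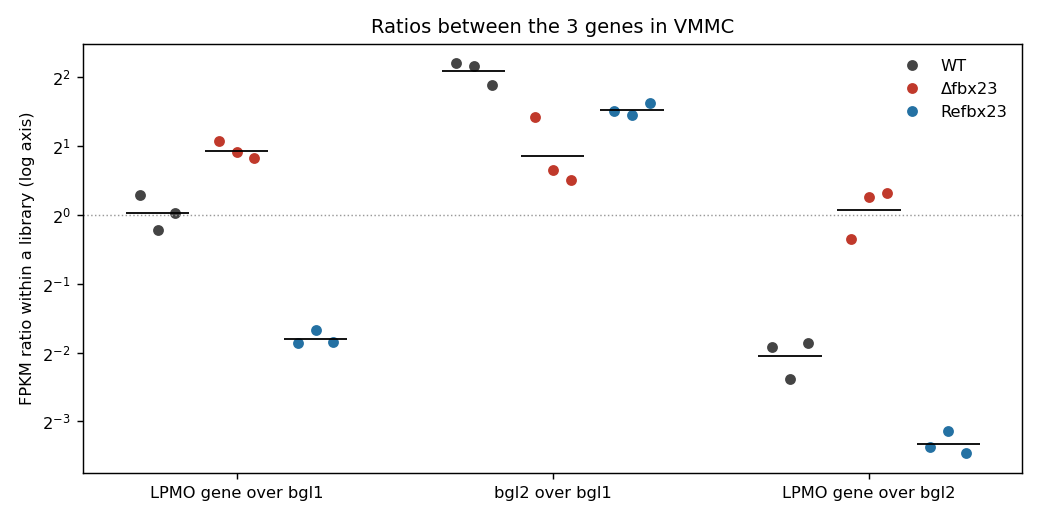
FPKM ratio between pairs of the 3 genes in each VMMC library on a log axis, with 1 point per library and a line at the geometric mean of the group (n = 3). For each ratio the 3 strains occupy separate ranges, and other gene pairs were not examined.

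The level order over the 6 groups was as follows. For bgl1 it ran from Δfbx23 VMMC through Refbx23 VMMC and WT VMMC to Refbx23 VMMG, WT VMMG and Δfbx23 VMMG, and no neighbouring groups overlapped. For bgl2 the WT VMMC was highest, followed by Refbx23 VMMC, Δfbx23 VMMC and Refbx23 VMMG, and Δfbx23 VMMG and WT VMMG overlapped (exact permutation p = 0.9). For the LPMO gene the VMMC groups were separate and the VMMG groups overlapped.

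Other genes of cellulose degradation were read beside the 3 genes. Of 13 cellulase genes that the study lists from the predicted genes of the genome, 0 were called higher and 11 lower in Refbx23 than in Δfbx23 in VMMC. Their median log2 fold change was -2.54, against 0.03 over all genes tested, of which 1.67% were called lower. The LPMO gene's value of -3.02 lay between that of cel5D (-3.01), which encodes a family 5 cellulase, and that of cel12B (-3.12), which encodes a family 12 endoglucanase. At 0.68 FPKM in Refbx23 against 12.6 in Δfbx23, cel5D passed the filter only through Δfbx23, and the log2(FPKM + 1) scale understates its fall. On this scale the called gene with the largest fall was cel12A (-3.51), at 21.2 ± 0.535 FPKM in Refbx23 against 253 ± 15.5 in Δfbx23. The called gene with the smallest fall was cel5B (-1.77), at 849 ± 57.1 against 2921 ± 429 FPKM. The 2 cellulase genes that were not called were cel5E (-0.23) and PDE_09041 (0.11). The values of -0.30 for bgl1 and 0.37 for bgl2 were not called either. A called gene is at least 2-fold lower by rule, so lying outside the range of the 11 follows from that.

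Against the WT in VMMC the complemented strain had 0 cellulase genes called higher and 3 lower of the 12 tested, with a median of -0.74 (-0.01 over all genes). Over all genes 5.63% were called higher and 7.09% lower. Those that fell were PDE_05445 (-4.75), at 3.31 ± 0.200 FPKM in Refbx23 against 115 ± 6.38 in the WT, cbh1 (-1.95), the gene of a cellobiohydrolase that works along cellulose chains, and cbh2 (-1.30), the gene of another cellobiohydrolase. The LPMO gene (-1.45) lay within this range. The study reported on the cellulase genes in VMMC for Δfbx23 against the WT, libraries that are also used here, so their counts are a description.

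**Figure D5:**
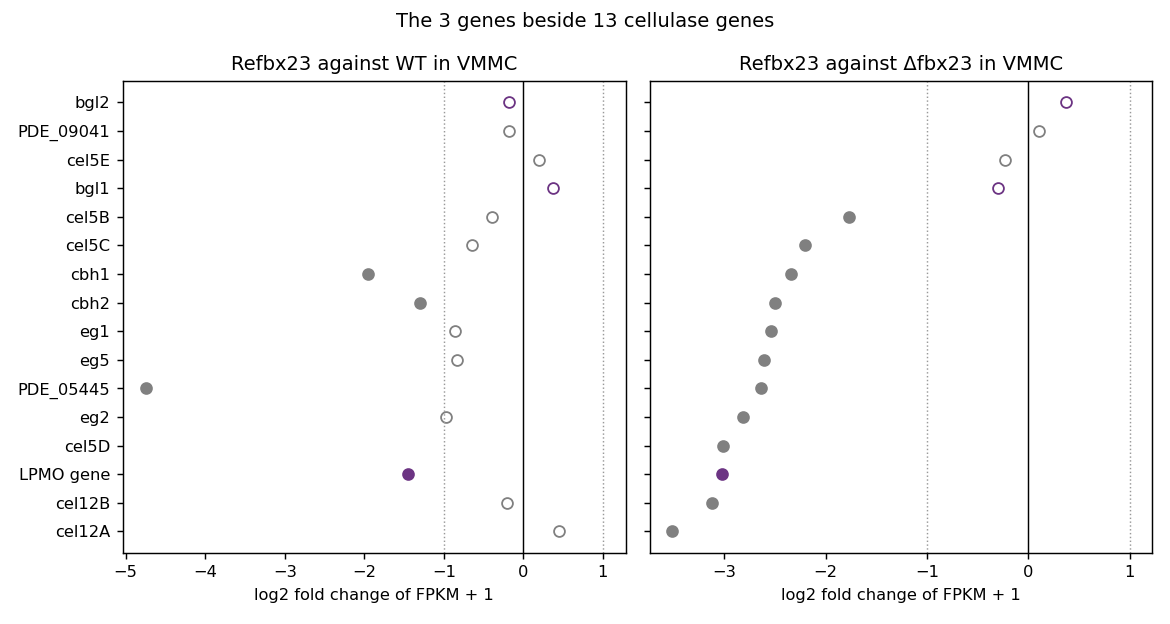
Log2 fold change of FPKM + 1 of Refbx23 against the WT (left) and against Δfbx23 (right) in VMMC for bgl1, bgl2 and the LPMO gene (purple) and 13 cellulase genes (grey), with filled points for called genes and dotted lines at 2-fold. At right the LPMO gene lies among the cellulase genes that fell, whereas bgl1 and bgl2 lie near 0, as do cel5E and PDE_09041. At left the LPMO gene lies between cbh1 and cbh2, and 9 of the 12 cellulase genes tested were not called. There cel12B (-0.21) and cel12A (0.45) lie about as near 0 as bgl2 (-0.18) and bgl1 (0.37). The gene cel5D was under the filter at left.

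A wider list was read in the same way. It held 18 genes that the study annotated with cellulose catabolic process, of which 6 are also among the 13, so the counts of both lists overlap. Of its 17 genes tested, 10 were called lower in Refbx23 than in Δfbx23 in VMMC (1.67% of all genes) and 0 higher, with a median of -1.64. All 6 shared genes are among these 10, and PDE_05445, cbh1 and cbh2 are again among those called lower against the WT. Against the WT 6 of 17 were called lower (7.09% of all genes) and 1 higher (5.63% of all genes), PDE_00698 (2.38), which stood at 110.1 ± 13.2 FPKM in Refbx23 and 20.4 ± 3.10 in the WT. Of 5 genes for hemicellulases and swollenin, 3 were called lower in Refbx23 than in Δfbx23 in VMMC, again beside 1.67% of all genes. They were the xylanase genes xyn10A (-3.05) and xyn11A (-2.88) and the swollenin gene (-1.54), whose product loosens cellulose. Against the WT 1 of the 5 was called lower, xyn10A (-2.08), and 1 higher, xyn11A (4.26), beside 7.09% and 5.63% of all genes. The xyn11A gene stood at 56.7 ± 7.62 FPKM in Refbx23 and 3.20 ± 3.82 in the WT.

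Between media, 9 of 12 cellulase genes tested were called higher in VMMC in the WT and 2 lower, beside 25.7% and 15.5% of all genes. The largest rise was that of cbh2 (10.07), from 2.13 ± 2.27 to 2880 ± 462 FPKM, and the largest fall that of cel5E (-3.98), from 437 ± 209.9 to 24.4 ± 5.05 FPKM. Of the wider list, 15 of 16 were called higher and 0 lower, beside the same shares. Among those called higher in either list, eg2 (0.587 FPKM in WT VMMG), PDE_05445 (0.93), eg5 (0.977), PDE_01261 (0.41) and PDE_06768 (0.437) passed the filter only through VMMC. Their direction followed from the filter. The cellulase genes were also compared between strains in VMMG, where bgl1 differed. In Δfbx23 against the WT 2 of 11 were higher, cel12B (1.38) and eg5 (1.13), an endoglucanase gene, and 0 lower, where 4.77% of all genes were higher. In Refbx23 against the WT 0 of 9 were higher and 2 lower, cel5E (-3.12) and cel12B (-2.35), where 6.80% of all genes were lower. In Refbx23 against Δfbx23 1 of 10 was higher, cel5C (1.13), and 3 lower, cel12B (-3.74), cel5E (-2.01) and eg5 (-1.42), where 13.4% of all genes were higher and 8.42% lower. Where eg5 was called in VMMG, it passed the filter only through Δfbx23 (3.32 FPKM, against 0.977 in the WT and 0.623 in Refbx23). With a pseudocount of 0.1, 8 genes were called in Refbx23 against Δfbx23 in place of 4.

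Profiles of the 3 genes were compared with those of all other genes as the root mean square (RMS) difference of log2(FPKM + 1) after centring each gene on its own mean. Over the 18 libraries and 8056 genes, the gene most like the LPMO gene was PDE_01261 (0.585), which the study annotated with cellulose catabolic process. The next were cel5B (0.599), cbh1 (0.763), eg5 (0.832) and cbh2 (0.863), all cellulase genes. Within the 9 VMMC libraries, where only strain differs, the closest 4 were eg2 (0.326), eg5 (0.361), eg1 (0.369) and cbh2 (0.370), and the next was PDE_06649 (0.404). For scale, the LPMO profile itself had an RMS of 4.37 over 18 libraries and 1.24 within VMMC. The libraries fall into 6 groups, so these likenesses are a description.

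None of the 5 genes nearest to either β-glucosidase gene was among the 13 cellulase genes. The 13 are few beside the 8056 genes compared, so their absence says little of bgl1 or bgl2. Over the 18 libraries the 5 genes most like bgl1 were PDE_04012 (0.278), PDE_00009 (0.402), PDE_04105 (0.449), PDE_06327 (0.610) and PDE_06734 (0.661), and bgl2 came at place 121. Those most like bgl2 were PDE_04297 (0.372), PDE_00753 (0.373), PDE_03571 (0.403), PDE_05194 (0.452) and PDE_03927 (0.468), and bgl1 came at place 53. Over both media the β-glucosidase genes were thus among the nearer genes to each other. This was not particular to that pair, since bgl2 came at place 20 and bgl1 at place 53 for the LPMO gene. The LPMO gene came at place 106 for bgl2 and 2408 for bgl1. Within VMMC bgl2 came at place 6124 of 7997 for bgl1 and bgl1 at place 6670 for bgl2. Within VMMC the closest genes to bgl1 were PDE_06156 (0.0564), PDE_03791 (0.0753), PDE_02556 (0.0778), PDE_08289 (0.0806) and PDE_09920 (0.0811). For bgl2 within VMMC they were PDE_05548 (0.0922), PDE_05978 (0.0949), PDE_05551 (0.0955), PDE_01495 (0.0981) and PDE_05404 (0.0990).

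The loci with adjacent numbers in the table were examined beside each gene. Next to bgl1, PDE_02735 stood at 2.94 ± 1.18 FPKM in WT VMMG, 1.27 ± 0.283 in Δfbx23 VMMG and 20.2 ± 5.84 in Refbx23 VMMG, the same order of strains as bgl1. It was called higher in Refbx23 than in the WT in VMMG (2.43, SE 0.30, adjusted p = 0.00125). In VMMC, where bgl1 was above the WT in both mutant strains, PDE_02735 was lower in Δfbx23 (-1.08, adjusted p = 0.000338) and at -0.73 in Refbx23. PDE_02734 had a mean of at most 0.12 FPKM in any group. On the other side PDE_02738 and PDE_02739 were not called in any comparison. The 4 loci nearest bgl2 were not called between media in any strain.

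Beside the LPMO gene, PDE_05634 was listed at 0 in all VMMG libraries and had a mean of at most 0.187 FPKM in VMMC. PDE_05632 was called lower in VMMC than in VMMG in the WT (-1.83) and in Δfbx23 (-1.23), and PDE_05635 was called lower in the WT (-1.41), the direction opposite to that of the LPMO gene. PDE_05631 was called higher in VMMC in Δfbx23 (1.04), the same direction as the LPMO gene. In VMMC none of the 3 loci that could be tested was called between strains.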

How the data were processed

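Strain and medium of the 18 libraries were taken from their labels. The authors mapped reads to the genome of the species and deposited FPKM per gene for each replicate. The aligner and genome version are not given in the sources used here. The labels describe a tag-based library and the study RNA-Seq, which was not settled. The study calls the replicates of the WT and Δfbx23 biological. For Refbx23 nothing used here says so, and p-values measure the spread between these libraries.

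FPKM were compared on the log2(FPKM + 1) scale with limma 3.58.1 (intensity trend, R 4.3.3) where the mean reached 1 FPKM, each pair of groups on its own 6 libraries and interactions on 12. Relative depth, estimated from the smallest FPKM steps of 69 to 125 genes per library, lay between 0.969 and 1.06. Ratios were compared by exact permutation tests, in Python 3.11.15. The limma steps were tested on simulated data.

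Members, lists and tests were chosen with earlier results of these data known. Named genes were the 3 members, the called genes of each list with the largest and smallest change (up to 4), the 5 nearest profiles and the 2 adjacent loci on each side. Alternatives were another pseudocount, filter, scaling, library weights, a joint fit, a replicate block and the omission of each library. No sequences are given, since the annotation used here covers another strain.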

Additional observations from a re-analysis of the deposited data

Results flagged for a closer look

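The strain differences of bgl1 differed between the media by the interaction test of limma, as the VMMC difference minus the VMMG difference on the log2 scale. The value was 1.81 for Δfbx23 against the WT (adjusted p = 0.000298), -1.09 for Refbx23 against the WT (adjusted p = 0.0125) and -2.90 for Refbx23 against Δfbx23 (adjusted p = 4.68e-06). Over all genes 20.4%, 28.9% and 23.1% were called in these tests. The call for Refbx23 against the WT was lost in 3 of 12 omissions of a library. The larger part of each value came from VMMG, where the summed level of the conidial pigment genes had the same order of strains, and their part in the result was not tested.

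The LPMO gene had values of 1.85, -1.22 and -3.07 in these comparisons. They restate its differences in VMMC, since it was at most 0.59 FPKM in any VMMG library and passed the filter through VMMC, so they say nothing of VMMG. At a pseudocount of 0.1 the first became 2.88, and the call for the second was lost at that pseudocount and with library weights.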

How the results depend on the processing

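Of the alternatives, median-ratio scaling moved the median log2 change over all genes from 0.13 to 0.00 for VMMC against VMMG in the WT, from 0.18 to 0.02 in Δfbx23 and from 0.06 to -0.06 for Refbx23 against Δfbx23 in VMMG. Under it the inductions of bgl1 became 4.33 and 6.12 and those of bgl2 6.57 and 5.94 in the WT and Δfbx23, with no change of call for the 3 genes. The numbers of genes called stayed within 1.5 times under every alternative run.

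The call for bgl1 in Δfbx23 against the WT in VMMG was lost with library weights (-0.90) and had a range of -1.34 to -0.91 when a library was left out. The difference of bgl2 in that comparison, not called, turned to -0.10 without WT VMMG replicate 3, in a range of -0.10 to 0.15. The interaction of bgl1 for Refbx23 against the WT ranged from -1.35 to -0.90 and was no longer 2-fold without WT VMMG replicate 1, Refbx23 VMMG replicate 1 or Refbx23 VMMG replicate 3. The LPMO interaction for Refbx23 against the WT was -0.50 with a pseudocount of 0.1 (adjusted p = 0.610) and -0.78 with library weights. List counts in VMMG moved with settings, and for Refbx23 against Δfbx23 8 of the cellulase genes instead of 4 were called with a pseudocount of 0.1.

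Replicate numbers did not pair the libraries: the correlation of same-numbered deviations lay between -0.214 and 0.263. A replicate block changed no call of the 3 genes, with bgl1 at -1.14 (adjusted p = 0.0202) for Δfbx23 against the WT in VMMG and the LPMO gene at -3.02 (adjusted p = 5.37e-05) for Refbx23 against Δfbx23 in VMMC. Under the filter of 1 FPKM the LPMO gene gave no strain test in VMMG. With the read number unknown, no limit from counting can be given for its values at 0.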
